A study of Mus musculus with 16 samples.

Results

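The genes that flank Nfkbid on mouse chromosome 7 were taken as every gene of the deposited tables whose GRCm38 start lies from 30000000 to 30800000 on that chromosome, with Nfkbid itself left out. The window of 800 kb holds 63 such genes, of the 46517 identifiers in the tables. Of the 63, 48 are protein coding, and 38 had enough counts to be tested, 34 of them protein coding. They were measured in thymocytes at the CD4+CD8+ (double-positive) stage, sorted alive from mice aged 6 to 7 weeks, 1 library per mouse. The transgenic group had 5 NOD-AI4-60A mice (3 males, 2 females), which carry an Nfkbid transgene. The knockout-labelled group had 5 NOD-AI4-Nfkbid-/- mice (4 males, 1 female). The control group had 6 NOD-AI4 mice (3 males, 3 females). NOD is an inbred strain prone to autoimmune diabetes, and mice of all 3 groups carry the AI4 transgenic T cell receptor. The promoter and the insertion site of the Nfkbid transgene, the design of the knockout allele, and whether 60A is 1 founder line are not stated in the labels.

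Nfkbid encodes IκBNS, a nuclear IκB protein that modulates transcription by NF-κB. Its closest neighbours on the side of lower coordinates are Hcst and Tyrobp, which lie tail to tail and encode DAP10 and DAP12, small transmembrane adaptors of NK and myeloid cell receptors. DAP10 recruits PI3-kinase and Grb2 to receptors such as NKG2D, whereas DAP12 carries an ITAM that recruits Syk and ZAP70. The closest neighbour on the other side is Aplp1, an amyloid precursor-like gene known mainly from neurons. The rest of the window mixes housekeeping genes (cytochrome c oxidase, RNA polymerase II and tubulin folding factors), a cluster of KRAB-type zinc finger genes, and genes known from kidney, skin, stomach or bladder. Nfkbid lies at chr7:30421732-30428746 on the plus strand. Hcst lies at chr7:30417712-30419854 on the minus strand, 1.88 kb from Nfkbid, and Tyrobp at chr7:30413760-30417585 on the plus strand, 4.15 kb from it. Aplp1 lies at chr7:30434982-30445535 on the minus strand, 6.24 kb beyond the other end of Nfkbid.

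The promoters of Hcst and Nfkbid are shown because Hcst had the clearest change of the window and the 2 genes start back to back, on opposite strands. They come from RefSeq (GRCm38.p6), in which 45 of the 63 flanking genes have an entry, and each spans 300 bases, 250 before and 50 after the annotated start, printed 5′ to 3′ on the gene's own strand. Hcst is at chr7:30419805-30420104 (minus strand), the first Nfkbid start at chr7:30421481-30421780 and the second at chr7:30422156-30422455 (both plus strand). Capitals mark matches, on either strand, to the κB consensus, which NF-κB binds, or to GGAAGT, a sequence of the kind that ETS factors bind.
Hcst: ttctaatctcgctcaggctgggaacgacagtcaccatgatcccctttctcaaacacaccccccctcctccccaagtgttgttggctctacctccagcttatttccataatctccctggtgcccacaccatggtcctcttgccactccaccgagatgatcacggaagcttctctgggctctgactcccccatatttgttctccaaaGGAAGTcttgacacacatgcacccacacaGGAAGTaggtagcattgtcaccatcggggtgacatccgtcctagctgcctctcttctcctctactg
Nfkbid, first start: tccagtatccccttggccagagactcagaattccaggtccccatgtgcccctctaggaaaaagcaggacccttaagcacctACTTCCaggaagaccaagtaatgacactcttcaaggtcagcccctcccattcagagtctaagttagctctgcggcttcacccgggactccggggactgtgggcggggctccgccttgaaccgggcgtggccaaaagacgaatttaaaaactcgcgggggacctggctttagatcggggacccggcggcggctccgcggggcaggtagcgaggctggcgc
Nfkbid, second start: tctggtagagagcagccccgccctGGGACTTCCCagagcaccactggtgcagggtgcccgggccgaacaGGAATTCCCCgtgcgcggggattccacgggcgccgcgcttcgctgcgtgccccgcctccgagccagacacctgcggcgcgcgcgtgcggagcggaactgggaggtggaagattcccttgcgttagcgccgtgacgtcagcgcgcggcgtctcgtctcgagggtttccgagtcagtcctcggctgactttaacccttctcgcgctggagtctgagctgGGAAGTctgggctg
The Hcst promoter held 2 matches to GGAAGT and 0 to the κB consensus, with 6 CpG dinucleotides and 53.3% GC. The second Nfkbid promoter held 2 matches to the κB consensus, at positions 25 and 70 of the window, with 35 CpG dinucleotides and 68.0% GC. The first of these overlaps a GGAAGT match on the opposite strand. The first Nfkbid promoter held 1 GGAAGT match and 0 of the κB consensus. The Hcst window and the first Nfkbid window are 1376 bases apart. Of all 32851 promoters in the RefSeq table, 4.51% held the κB consensus and 23.8% held GGAAGT, against 2 and 16 of the 53 promoters of the flanking genes. The looser pattern GGGNNNNNCC, which every κB consensus match also fits, occurred in 50.8% of all promoters and in 29 of the 53. A match describes the letters of the window and is neither a binding site nor a cause.

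Library totals were 18546570 to 25836799 estimated counts in transgenic, 21662210 to 35637813 in knockout-labelled and 17955743 to 26586220 in control libraries. The mouse identifiers of the controls form 1 series and those of the other mice another, so in a comparison with the controls the group and the identifier series cannot be told apart. The transgenic and knockout-labelled mice share a series. Levels below are counts per 1000000 on TMM-scaled library sizes (CPM) unless TPM, which is per length, is named. A gene is called changed where the adjusted p of edgeR's quasi-likelihood test over all 14933 genes tested was under 0.05.

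Nfkbid itself had 309.6, 239.0, 114.7, 194.5 and 182.8 CPM in the 5 transgenic libraries. It had 34.3, 28.8, 28.7, 28.2 and 37.8 CPM in the knockout-labelled libraries, and 28.9, 31.9 and 36.9 CPM as the lowest, median and highest of the 6 controls. The transgenic libraries therefore stood above all others, and the knockout-labelled libraries overlapped the controls, with an edgeR adjusted p of 0.78 for a log2 fold change of 0.07 (SE 0.15). For this reason these libraries are called knockout-labelled, and a difference between them and the controls is a difference between libraries so labelled.

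Hcst was the flanking gene with the clearest difference. It had 28.0, 20.7, 12.6, 17.4 and 17.6 CPM in transgenic libraries 1 to 5. It had 7.38, 6.68, 5.00, 4.01 and 4.71 CPM in knockout-labelled libraries 1 to 5, and 3.93, 5.55 and 6.23 CPM as the lowest, median and highest control. Every transgenic library was above every other library, and the knockout-labelled libraries overlapped the controls. Per length, Hcst was at 86.3 ± 23.8 TPM in transgenic libraries (SD, n = 5), 25.7 ± 6.43 TPM in knockout-labelled libraries (SD, n = 5) and 26.1 ± 3.92 TPM in controls (SD, n = 6). The transgenic level was 3.59-fold the control level and 3.22-fold the knockout-labelled level. Against the knockout-labelled mice, which share their identifier series, the log2 fold change was 1.69 (SE 0.15, edgeR adjusted p = 1.1e-05). The difference of mean CPM was 13.7 (exact two-sided permutation p = 0.00794, the smallest that 252 permutations allow). Against controls it was 13.8 CPM (exact two-sided permutation p = 0.00433, the smallest that doubling the tail of 462 permutations allows). Knockout-labelled and control libraries differed by 0.128 CPM, less than the spread between replicates (exact two-sided permutation p = 0.853).

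**Figure D1:**
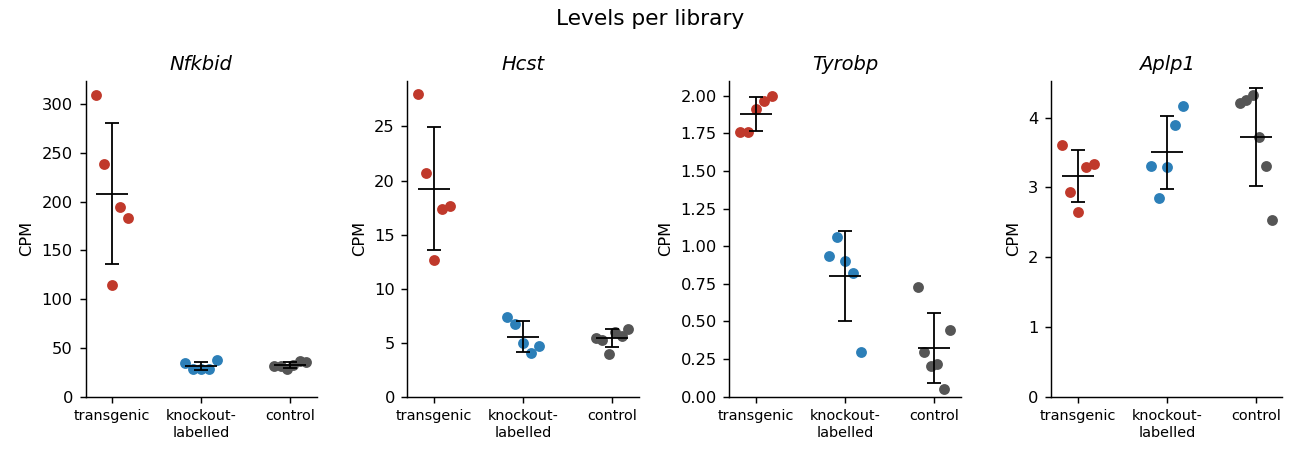
Levels in CPM of Nfkbid and of its 3 nearest tested neighbours in each library, with transgenic libraries at the left, then knockout-labelled and control libraries; points are libraries, the dash is the group mean and bars are ± SD. Hcst and Tyrobp are highest in the transgenic libraries (12.6 to 28.0 and 1.76 to 2.00 CPM), while the Aplp1 libraries of the 3 groups overlap.

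Within the transgenic group, Hcst followed the order of Nfkbid closely. Transgenic 1, with the most Nfkbid, had the most Hcst, transgenic 2 came next in both, and transgenic 3 was lowest in both. The libraries in between, transgenic 4 and 5, had 194.5 and 182.8 CPM of Nfkbid and 17.4 and 17.6 CPM of Hcst. Transgenic 1 and 2 are the 2 females of the group. The knockout-labelled libraries did not show this order. Knockout 5, with the most Nfkbid of its group (37.8 CPM), had 4.71 CPM of Hcst, and knockout 2, with 28.8 CPM of Nfkbid, had 6.68 CPM. Among the controls, control 3 was lowest in both, and control 5, highest in Nfkbid (36.9 CPM), had 5.66 CPM of Hcst. Counted per 100 Nfkbid counts, Hcst was at 8.64 to 11.0 in transgenic libraries (median 9.04), 12.5 to 23.2 in knockout-labelled libraries (median 17.4) and 13.6 to 18.6 in controls (median 17.1). Hcst therefore increased by a smaller factor than Nfkbid, and each transgenic library had a lower ratio than each other library. Per length, the Hcst excess of a transgenic library over the mean of the other groups was 39.1% to 45.1% of its Nfkbid excess in TPM.

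The neighbours that flank Hcst and Nfkbid did not share this proportion. The Tyrobp excess in TPM was 1.69% of the Nfkbid excess in transgenic 1 and 6.45% in transgenic 3, so the share differed between libraries while the Tyrobp level itself varied little in this group. Aplp1 was below the mean of the other groups in all 5 transgenic libraries, and its difference in TPM was -1.16% to -0.094% of the Nfkbid excess. The gene bodies of Hcst and Nfkbid do not overlap in the annotation, and the deposited counts of both were whole numbers in all 16 libraries, so neither shows a fractional split with another gene. The libraries were made with a stranded kit, but the sources used here do not give the strand setting of the counting. Whether RNA from the transgene or from Nfkbid added to the Hcst counts was not tested.

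**Figure D2:**
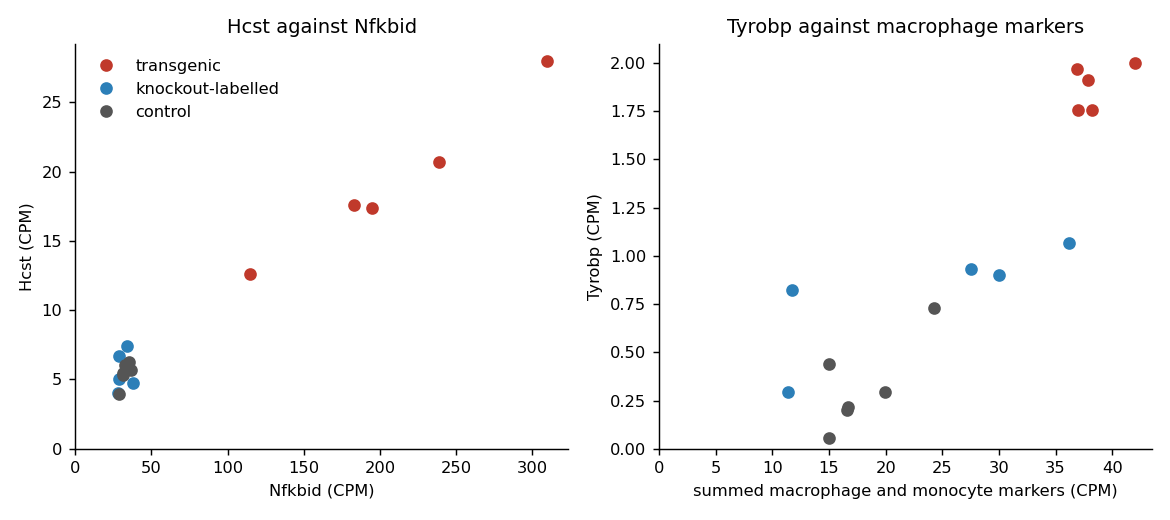
Left, Hcst against Nfkbid in each library, both in CPM; right, Tyrobp in CPM against the summed CPM of 15 macrophage and monocyte markers, with points coloured by group. In the left panel the 5 transgenic libraries spread along both axes, from 114.7 to 309.6 CPM of Nfkbid, and in the right panel they stand together at 36.9 to 42.0 CPM of summed markers.

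Tyrobp was low in all groups and highest in the transgenic libraries. It had 1.76, 1.76, 1.91, 1.97 and 2.00 CPM in transgenic libraries 1 to 5, which are 36 to 45 counts per library. It had 0.93, 1.06, 0.90, 0.82 and 0.29 CPM in knockout-labelled libraries 1 to 5 (7 to 29 counts), and 0.053, 0.26 and 0.73 CPM as the lowest, median and highest control (1 to 19 counts). The transgenic libraries overlapped with no other library, and in the knockout-labelled group only knockout 5 lay within the range of the controls. The log2 fold change was 2.48 for transgenic over control libraries (SE 0.37, edgeR adjusted p = 1.3e-04, 5.57-fold). It was 1.22 for knockout-labelled over control libraries (SE 0.39, edgeR adjusted p = 0.0293) and 1.26 for transgenic over knockout-labelled libraries (SE 0.35, edgeR adjusted p = 0.112), which was not called. The call for knockout-labelled over control libraries was lost in 13 of 33 alternative settings, among them leaving out any one of knockout 1 to 4 or of controls 2 to 4 (edgeR adjusted p = 0.052 to 0.1). DESeq2 called Tyrobp in the transgenic over knockout-labelled comparison (adjusted p = 0.031).

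Markers of cells that express DAP12 were set beside Tyrobp. Of 15 macrophage and monocyte markers, 12 were tested, and 9 were higher and 1 was lower in transgenic than in control libraries, where 23% of all genes tested were higher and 15.6% lower. They include Fcer1g, the Fc receptor γ chain, at a log2 fold change of 3.03 (SE 0.57, edgeR adjusted p = 6.6e-04). Adgre1, which encodes F4/80, was at 2.41 (SE 0.51, edgeR adjusted p = 0.00163). Fcer1g was at 0 in controls 3, 4 and 5, and Adgre1 in control 4. Genes this low can pass the filter on expression through the transgenic libraries. Their higher values there, and the counts and medians that hold them, are therefore not independent of the filter. In knockout-labelled over control libraries 2 of the 12 were higher and 1 was lower, where 16.4% of all genes tested were higher and 10% lower. The median log2 fold change of the 12 was 1.76 in transgenic over control and 1.34 in transgenic over knockout-labelled libraries, each with 11 positive and 1 negative. In knockout-labelled over control libraries the median was 0.12, with 8 positive and 4 negative. Fcer1g was at a log2 fold change of 1.94 (SE 0.63) and Mpeg1, which encodes perforin-2, at 2.34 (SE 0.78) in that comparison. The summed level of the 15 was 36.9 to 42.0 CPM in transgenic, 11.4 to 36.2 CPM in knockout-labelled and 15.0 to 24.3 CPM in control libraries, and none of the 15 was at 0 in every library of a group. Knockout 5, the lowest of its group in Tyrobp, had the lowest marker sum, and control 1, the highest control in Tyrobp, had the highest of the controls. Knockout 4, however, had 0.82 CPM of Tyrobp, above every control, beside a marker sum of 11.7 CPM, below every control. In bulk samples such as these, fewer cells of a type and less RNA per cell cannot be told apart. The part of these cells in the Tyrobp result was not tested.

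The other marker lists were counted in the same way. In transgenic over control libraries 23% of all genes tested were higher and 15.6% lower. Of 9 tested dendritic cell markers 6 were higher and 0 lower there, and of 11 tested B cell markers 10 were higher and 0 lower. Genes of these lists that were near 0 in the controls can also pass the filter through the transgenic libraries. The 12 listed dendritic cell genes summed to 1624 to 2040 CPM in transgenic, 1414 to 1815 CPM in knockout-labelled and 1847 to 2080 CPM in control libraries. By this sum the transgenic and control libraries overlapped. Of the 6 tested NK, innate lymphoid and gamma-delta markers, the cells best known for DAP10, 3 were higher, with Il2rb at a log2 fold change of 1.58 (SE 0.30, edgeR adjusted p = 7.6e-04) and Gzma at 1.14 (SE 0.23, edgeR adjusted p = 0.00183). The 12 listed genes summed to 820 to 941 CPM in transgenic, 689 to 752 CPM in knockout-labelled and 519 to 709 CPM in control libraries. The receptor genes Klrk1, Klrd1 and Ncr1 of this list are also among 17 receptors, given below, that summed to at most 4.15 CPM. The larger sum thus rests on other genes of the list and does not measure NK cells. Granulocyte markers summed to at most 0.973 CPM in any library, with Elane at 0 in all 3 groups, and edgeR called 0 of 3 tested thymic epithelial markers (1 at an unadjusted p under 0.05) and 0 of 5 tested erythroid markers (0 at that level). The double-positive thymocyte markers were abundant in all groups, at 5615 to 6260 CPM in transgenic, 5807 to 7421 CPM in knockout-labelled and 5596 to 8453 CPM in control libraries. Of the 12, 1 was higher and 9 were lower in transgenic than in control libraries.

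In transgenic over knockout-labelled libraries, in which Hcst and 1.17% of all genes tested were called, edgeR called 0 of the 6 NK-type markers, with 1 at an unadjusted p under 0.05 and 0 called by DESeq2 or limma-voom. It called 0 of the 12 macrophage and monocyte markers, of which 7 had an unadjusted p under 0.05, and DESeq2 called 1 and limma-voom 2. Of the 11 B cell markers 6 were higher and 0 lower. In knockout-labelled over control libraries, where 26.4% of all genes tested were called, 2 of the 6 NK-type markers were higher, and 2 of the 11 B cell markers were higher and 2 lower. Of the 9 dendritic cell markers 1 was lower and 0 higher there. The median log2 fold change of these 9 was 0.80, with 7 positive and 2 negative. Of the double-positive thymocyte markers 1 was higher and 4 were lower in that comparison.

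The receptors listed for DAP10 and DAP12 had very few counts. The list holds 17 receptors, Ncr1 among them, and not every one need signal through these 2 adaptors. Of the 17 only Siglech, a plasmacytoid dendritic cell receptor that is also in the dendritic cell list, had enough counts to be tested (log2 fold change 2.37 for transgenic over control libraries, SE 0.48, edgeR adjusted p = 0.00131). The 17 summed to 2.54 to 4.15 CPM in transgenic, 0.426 to 3.40 CPM in knockout-labelled and 0.160 to 1.15 CPM in control libraries. A gene this low can pass the filter on expression through the transgenic libraries, where the sum was highest. The higher value of Siglech there is therefore not independent of the filter. The signalling list holds 14 genes, among them Fcer1g and Cd247, which encode ITAM chains like DAP12 rather than proteins downstream of it. All 14 were tested, and 5 were higher and 2 lower in transgenic than in control libraries. Together 7 of the 14 were called there, against 38.6% of all genes tested. The higher ones include Plcg2, a phospholipase of B and myeloid cells, at a log2 fold change of 1.91 (SE 0.29, edgeR adjusted p = 1.6e-04) and Fcer1g, which the macrophage list holds too. The limit of the filter given above for Fcer1g holds here as well. In knockout-labelled over control libraries 2 were higher and 1 was lower, which is 21.4% against 26.4% of all genes. In transgenic over knockout-labelled libraries edgeR called 0 of the 14, with 4 at an unadjusted p under 0.05, against 1.17% of all genes called.

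Aplp1, on the far side of Nfkbid, did not differ beyond the spread between replicates. It had 3.61, 2.93, 2.65, 3.30 and 3.33 CPM in transgenic libraries 1 to 5. It had 3.31, 2.85, 3.29, 3.89 and 4.17 CPM in knockout-labelled libraries 1 to 5, and 2.54, 3.97 and 4.33 CPM as the lowest, median and highest control. The 3 groups overlap. The log2 fold change was -0.25 for transgenic over control (SE 0.14, edgeR adjusted p = 0.18), -0.14 for knockout-labelled over control (SE 0.14, edgeR adjusted p = 0.508) and -0.11 for transgenic over knockout-labelled libraries (SE 0.15, edgeR adjusted p = 0.929). Without control 6, the lowest of the controls, Aplp1 was called lower in transgenic libraries (-0.36, edgeR adjusted p = 0.0364).

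Arhgap33, 93.5 kb beyond Nfkbid, is the next tested gene on that side. Its levels were 30.2, 26.3, 28.9, 36.9 and 35.6 CPM in transgenic libraries 1 to 5. They were 26.5, 33.6, 40.4, 28.6 and 26.3 CPM in knockout-labelled libraries 1 to 5, and 24.5, 29.2 and 45.4 CPM as the lowest, median and highest control. The groups overlap, and the gene was called in none of the 3 comparisons (edgeR adjusted p = 0.962 for transgenic over control, 0.891 for knockout-labelled over control and 0.989 for transgenic over knockout-labelled libraries).

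In transgenic over control libraries 12 of the 38 tested flanking genes were called, 10 higher and 2 lower. This is 31.6% of them, against 38.6% of all genes tested (23% higher and 15.6% lower), so the share in the window is not above the background. The median log2 fold change of the 38 was 0.07, against 0.03 over all genes, and the median of its size without sign was 0.24, against 0.21. Hcst and Tyrobp were the largest. Without them 10 of 36 were called.

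In knockout-labelled over control libraries 10 of the 38 were called, 7 higher and 3 lower. That is 26.3%, against 26.4% of all genes tested (16.4% higher and 10% lower), and the median log2 fold change was 0.08, against 0.02 over all genes. In transgenic over knockout-labelled libraries edgeR called Hcst alone, with Tyrobp and Clip3 also at an unadjusted p under 0.05. This is 2.63% of the 38, against 1.17% of all genes tested (1.07% higher and 0.0938% lower). The median log2 fold change without sign of the other 36, with Tyrobp left out too, was 0.07, against 0.08 over all genes.

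Against distance, the calls were spread over the window in both comparisons with the controls. In transgenic over control libraries 2 of 3 tested genes within 20 kb of Nfkbid were called, 1 of 2 from 20 to 100 kb, 6 of 15 from 100 to 200 kb and 3 of 18 beyond 200 kb. The median log2 fold change in these bins was 1.85, 0.25, 0.17 and 0.00. In knockout-labelled over control libraries the calls were 1 of 3, 0 of 2, 6 of 15 and 3 of 18, and the medians 0.16, 0.15, 0.14 and 0.02. In transgenic over knockout-labelled libraries the calls were 1 of 3, 0 of 2, 0 of 15 and 0 of 18, and the medians 1.26, 0.10, 0.03 and -0.01. Of all genes tested, 38.6%, 26.4% and 1.17% were called in these 3 comparisons. Genes are not replicates, so no test was made of a trend with distance, and the bin nearest to Nfkbid holds only Hcst, Tyrobp and Aplp1.

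By strand, 4 of 15 tested genes on the strand of Nfkbid and 8 of 23 on the other strand were called in transgenic over control libraries. These are 26.7% and 34.8%, against 38.6% of all genes tested. In knockout-labelled over control libraries the calls were 3 of 15 on the strand of Nfkbid and 7 of 23 on the other. The median log2 fold change on the strand of Nfkbid was -0.02 for transgenic over control and -0.04 for knockout-labelled over control libraries, and on the other strand it was 0.12 and 0.10. On the side of lower coordinates 6 of 19 were called in transgenic over control and 3 of 19 in knockout-labelled over control libraries. On the other side the calls were 6 of 19 and 7 of 19. The shares on the lower side were 31.6% and 15.8%, and on the other side 31.6% and 36.8%, beside the same 38.6% and 26.4%.

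Outside the window, the rest of chromosome 7 had 380 of 1012 tested genes called in transgenic over control (37.5%), 254 in knockout-labelled over control (25.1%) and 14 in transgenic over knockout-labelled libraries (1.38%). In the 800 kb before the window 3, 2 and 0 of 16 tested genes were called in these comparisons, and in the 800 kb after it 3, 1 and 1 of 9. The window thus had a share of calls near that of the chromosome in each comparison with the controls.

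**Figure D3:**
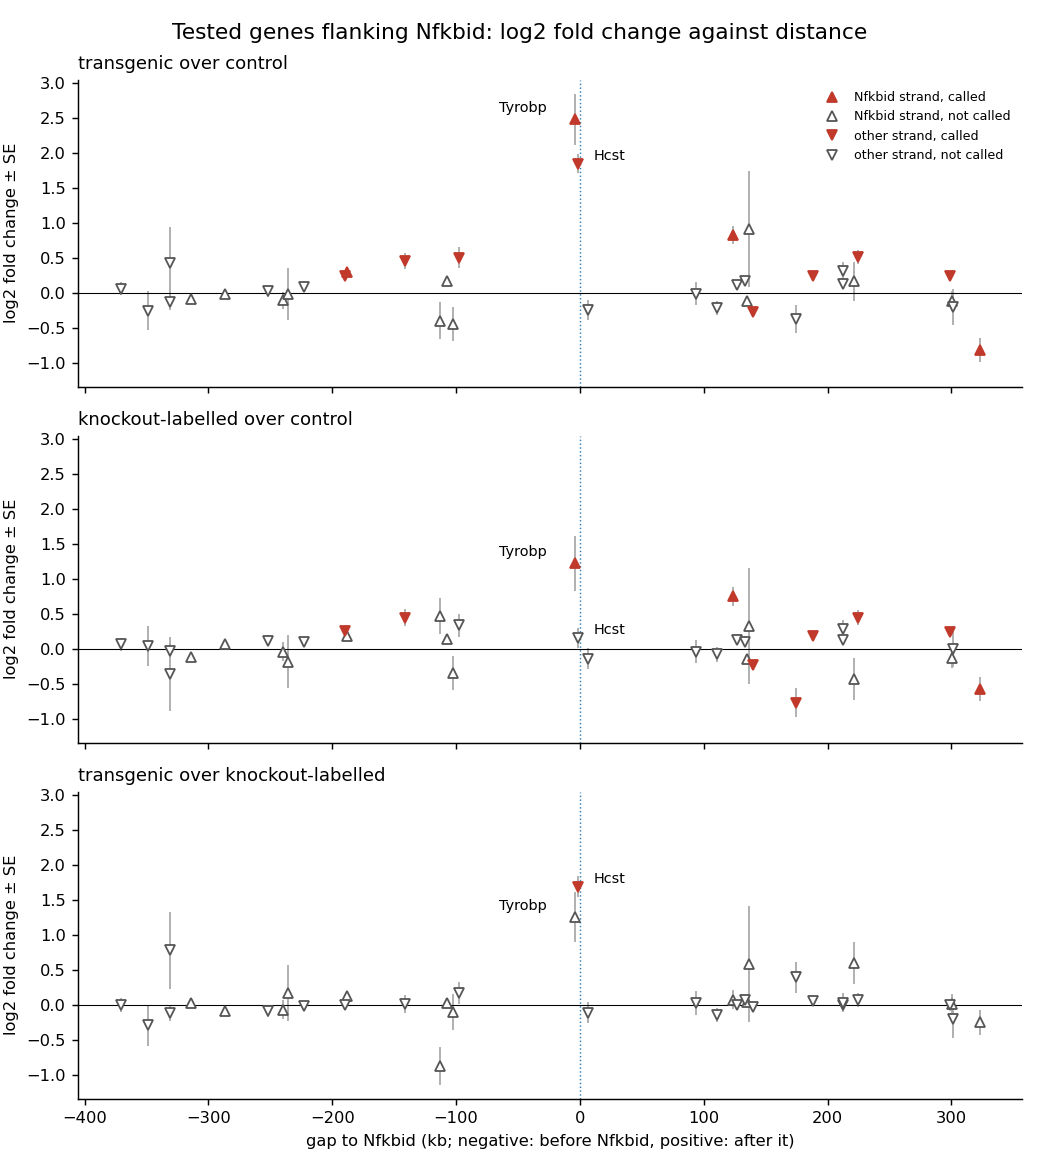
Log2 fold change ± SE of the 38 tested flanking genes against the gap in kb between the gene and Nfkbid, negative before Nfkbid and positive after it, for transgenic over control (top), knockout-labelled over control (middle) and transgenic over knockout-labelled libraries (bottom); triangles point up for genes on the strand of Nfkbid and down for the other strand, and filled ones are called. Away from Hcst and Tyrobp the values lie between -0.82 (Sbsn) and 0.91 (Igflr1) in the top panel, and in the bottom panel only Hcst is filled.

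Among the genes farther away, Hspb6, which encodes a small heat shock protein, was called higher in both groups against controls. It had 4.15, 3.95, 4.21, 4.26 and 4.98 CPM in transgenic libraries 1 to 5. It had 3.32, 4.43, 5.00, 4.18 and 3.75 CPM in knockout-labelled libraries 1 to 5, and 1.89, 2.45 and 2.85 CPM as the lowest, median and highest control. All transgenic and all knockout-labelled libraries were above all controls. The log2 fold change was 0.83 for transgenic over control (SE 0.13, edgeR adjusted p = 1.9e-04) and 0.75 for knockout-labelled over control libraries (SE 0.14, edgeR adjusted p = 0.00123). The transgenic and knockout-labelled libraries overlapped (log2 fold change 0.07, SE 0.13, edgeR adjusted p = 0.957). Both comparisons with the controls use the same 6 control libraries, here and for the genes that follow.

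Haus5 encodes a subunit of augmin, which builds spindle microtubules. It had 17.2, 16.8, 15.7, 20.9 and 18.7 CPM in transgenic libraries 1 to 5. It had 14.4, 17.7, 19.6, 19.9 and 14.5 CPM in knockout-labelled libraries 1 to 5, and 11.1, 12.5 and 13.5 CPM as the lowest, median and highest control. The controls were below all other libraries. The log2 fold change was 0.52 for transgenic over control (SE 0.10, edgeR adjusted p = 7.5e-04) and 0.45 for knockout-labelled over control libraries (SE 0.10, edgeR adjusted p = 0.00462). Haus5 shares its strand and part of its body with Gm21982, and its counts were fractional in all 16 libraries, so the split between these genes is uncertain. On deposited TPM neither call held (adjusted p = 0.103 for transgenic over control and 0.132 for knockout-labelled over control libraries).

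Tbcb encodes a cofactor of tubulin folding. It had 39.0, 35.7, 34.4, 37.2 and 36.3 CPM in transgenic libraries 1 to 5. It had 33.9, 35.7, 39.4, 38.4 and 36.6 CPM in knockout-labelled libraries 1 to 5, and 29.8, 30.7 and 31.8 CPM as the lowest, median and highest control. The controls were again below all others, by a small amount, with a log2 fold change of 0.25 for transgenic over control (SE 0.05, edgeR adjusted p = 0.00101) and also 0.25 for knockout-labelled over control libraries (SE 0.05, edgeR adjusted p = 0.00208). Tbcb overlaps Polr2i, an RNA polymerase II subunit gene on the other strand, and both had fractional counts in all 16 libraries. On deposited TPM the call of Tbcb in transgenic over control libraries was lost (adjusted p = 0.0758). Polr2i was called higher in transgenic than in control libraries, at a log2 fold change of 0.30 (SE 0.06, edgeR adjusted p = 0.0013). Its value of 0.18 in knockout-labelled over control libraries was not called (edgeR adjusted p = 0.0509).

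Kmt2b, which encodes a histone H3 lysine 4 methyltransferase, was called lower in both groups against controls. It had 261.8, 219.8, 255.1, 241.2 and 267.9 CPM in transgenic libraries 1 to 5. It had 263.8, 237.3, 250.8, 240.7 and 275.4 CPM in knockout-labelled libraries 1 to 5, and 280.0, 297.6 and 344.9 CPM as the lowest, median and highest control. All controls were above all other libraries, and control 5 stood highest. The log2 fold change was -0.27 for transgenic over control (SE 0.06, edgeR adjusted p = 0.00282) and -0.24 for knockout-labelled over control libraries (SE 0.06, edgeR adjusted p = 0.012).

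Upk1a, a uroplakin gene of the bladder lining, was near the lower limit of the tested genes, with 12 to 34 counts in a library. It had 1.02, 0.90, 1.00, 0.74 and 0.76 CPM in transgenic libraries 1 to 5. It had 0.93, 0.64, 0.54, 0.57 and 0.59 CPM in knockout-labelled libraries 1 to 5, and 0.89, 1.11 and 1.66 CPM as the lowest, median and highest control. Knockout 1 lay within the range of the controls and the other knockout-labelled libraries below it. The log2 fold change was -0.77 for knockout-labelled over control (SE 0.21, edgeR adjusted p = 0.0117) and -0.37 for transgenic over control libraries (SE 0.20, edgeR adjusted p = 0.148), which was not called.

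For the other called genes the log2 fold change is given for transgenic over control libraries first. Wdr62, a spindle pole scaffold gene, was higher at 0.46 and 0.45 in knockout-labelled over control libraries. Cox6b1, a cytochrome c oxidase subunit gene, was higher at 0.24 and 0.19, and Tmem147, which encodes a membrane protein of the endoplasmic reticulum, was higher at 0.24 and 0.25. Sbsn, the suprabasin gene of the epidermis, was lower at -0.82 and -0.57. Sdhaf1, an assembly factor gene of succinate dehydrogenase, was higher in transgenic libraries at 0.50 and was at 0.33 in knockout-labelled over control libraries, where it was not called (edgeR adjusted p = 0.135). The call of Sdhaf1 in transgenic libraries was lost without transgenic 4, transgenic 5 or control 1 (edgeR adjusted p = 0.0584 to 0.062). The calls of Cox6b1 (without knockout 4, where its log2 fold change was 0.12, or control 2), Tmem147 (without knockout 5), Wdr62 (without control 2) and Sbsn (without knockout 1) in knockout-labelled over control libraries were lost too, with edgeR adjusted p = 0.0573 to 0.0878. In transgenic over control libraries Cox6b1 and Tmem147 were not called with an offset for GC content and length (edgeR adjusted p = 0.0565 and 0.123) or in males alone (0.14 and 0.415), nor was Sbsn in males alone (0.0992). On deposited TPM Wdr62 lost its call in transgenic over control and in knockout-labelled over control libraries (limma adjusted p = 0.188 and 0.304). Sdhaf1 and Tmem147 lost theirs in transgenic over control libraries (limma adjusted p = 0.0858 and 0.118). Cox6b1, Tmem147 and Sbsn lost theirs in knockout-labelled over control libraries (limma adjusted p = 0.068, 0.0688 and 0.177). In transgenic over knockout-labelled libraries Wdr62, Cox6b1, Tmem147, Sbsn and Sdhaf1 lay between -0.25 and 0.17.

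**Figure D4:**
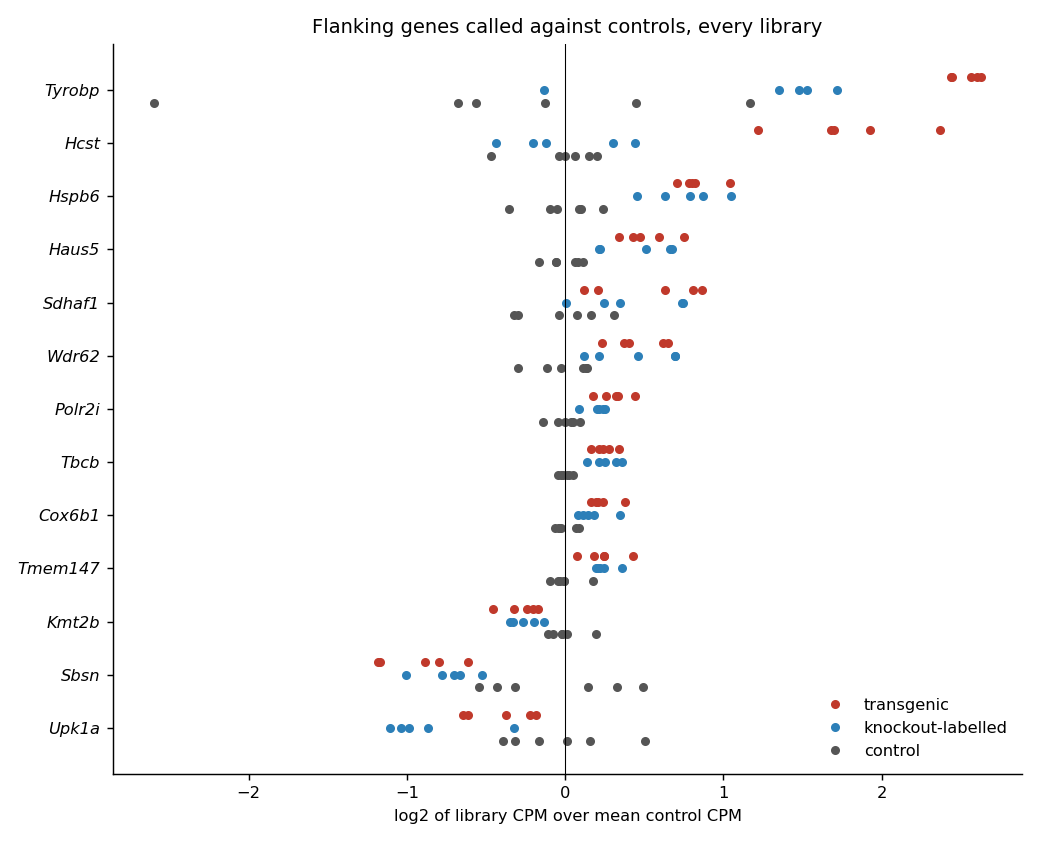
Log2 of each library's CPM over the mean control CPM for the 13 flanking genes called against controls in either group, with transgenic libraries above knockout-labelled and control libraries in each row; points are libraries. In the row of Hcst only the transgenic libraries stand apart from the controls, while Hspb6, Haus5 and Tbcb have the transgenic and knockout-labelled libraries together above the controls.

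Most of the tested flanking genes were not called. Of the 6 tested zinc finger genes at the low-coordinate end (Zfp14, Zfp82, Zfp566, Zfp260, Zfp382 and Zfp146) edgeR called 0 in each of the 3 comparisons, in which it called 38.6% (transgenic over control), 26.4% (knockout-labelled over control) and 1.17% (transgenic over knockout-labelled) of all genes tested. None of the 6 had an unadjusted p under 0.05 or was called by DESeq2 or limma-voom. Their median log2 fold change was -0.05 for transgenic over control and 0.05 for knockout-labelled over control libraries. Zfp82 was at -0.25 in transgenic over control libraries (SE 0.28). Capns1, the small subunit gene of the calpains, Psenen, a γ-secretase subunit gene, and Lin37, a gene of the DREAM complex, were at 0.08, 0.17 and 0.12 in transgenic over control libraries. Clip3, which encodes a microtubule-binding linker protein, had 0.73, 1.25, 0.65, 1.17 and 1.14 CPM in transgenic libraries 1 to 5 and 1.65, 1.45, 1.44, 1.42 and 2.95 CPM in knockout-labelled libraries 1 to 5. These did not overlap, but the difference was not called, with a log2 fold change of -0.87 (SE 0.27, edgeR adjusted p = 0.177). Clip3 was named here after its values were seen.

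Per length, the window spans more than 2 orders of magnitude in TPM. Cox6b1 was highest, at 320.8 ± 14.7 TPM in transgenic (SD, n = 5), 316.3 ± 15.4 TPM in knockout-labelled (SD, n = 5) and 291.4 ± 8.1 TPM in control libraries (SD, n = 6). Capns1 followed, at 163 TPM in transgenic, 169 TPM in knockout-labelled and 171 TPM in control libraries, a difference smaller than the spread between replicates. Hcst, at 26.1 TPM in controls (SD 3.92, n = 6), lay beside Nfkbid (28.9 TPM), Proser3 (27.3 TPM) and Alkbh6 (23.3 TPM), and it did not differ from any of these beyond its SD. Tyrobp was at 6.14 ± 0.54 TPM in transgenic (SD, n = 5), 2.70 ± 1.01 TPM in knockout-labelled (SD, n = 5) and 1.12 ± 0.80 TPM in control libraries (SD, n = 6), where only Gapdhs and Igflr1 were lower among the tested genes.

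**Figure D5:**
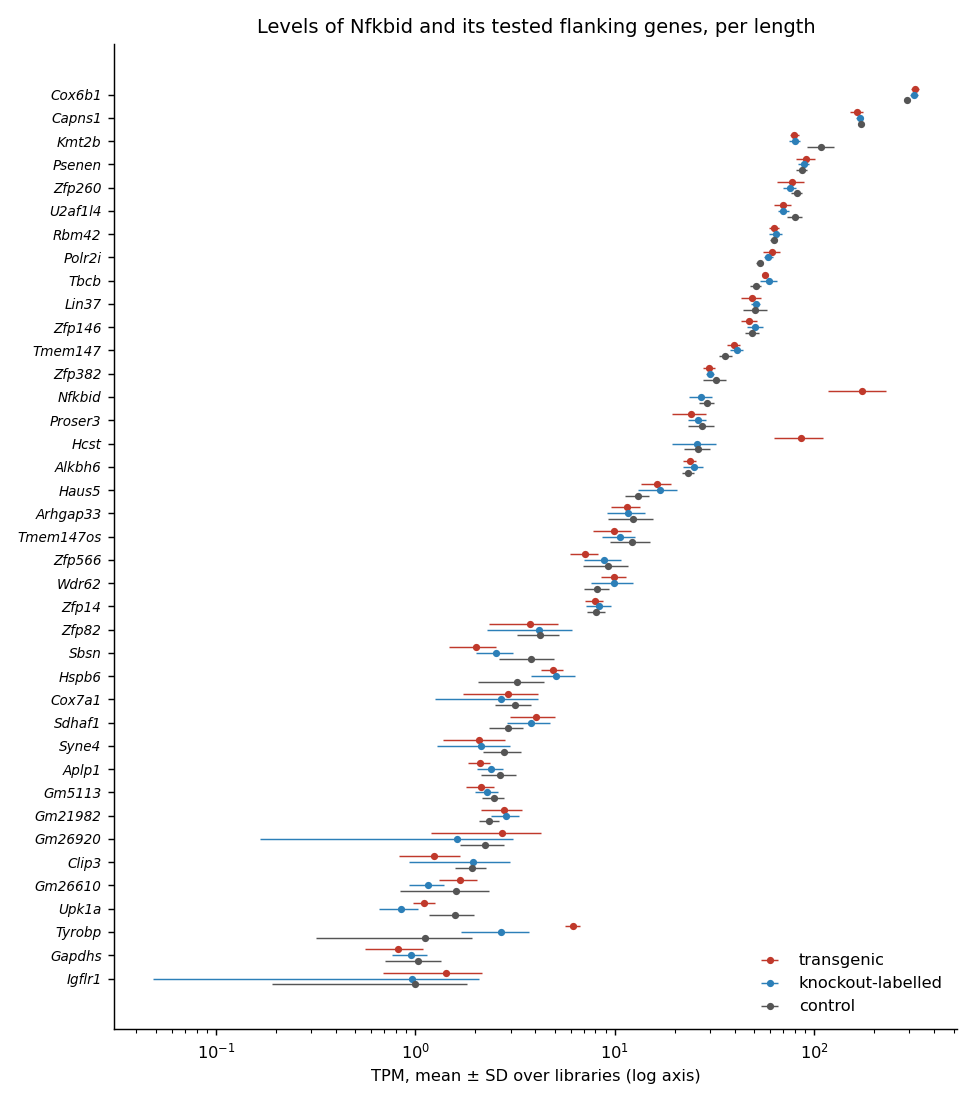
Mean TPM ± SD on a log axis of Nfkbid and the 38 tested flanking genes, in order of the control mean, with transgenic libraries above knockout-labelled and control libraries in each row; a lower bar that would pass 0 is cut short. Cox6b1 is highest in all groups, and the transgenic means of Nfkbid, Hcst (86.3 TPM) and Tyrobp (6.14 TPM) stand to the right of the other groups.

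The 25 flanking genes that were not tested had at most 14 counts in any library (0.748 CPM). A count under 1e-06 is taken as 0 here. Of the 25, 12 had a count of 0 in every library, among them Kirrel2, a podocyte gene, Etv2, a regulator of endothelial fate, and the skin genes Dmkn and Krtdap. The others were Gm23368, Gm25259, Nphs1os, Gm38670, Mir3569, Pmis2, Gm4883 and 2200002J24Rik. The 13 with some count were Nphs1, which encodes nephrin, Atp4a, which encodes the gastric proton pump, Zbtb32, a lymphocyte transcription factor gene, Prodh2, Lrfn3, Ovol3, Thap8, Gm26810, Rps12-ps5, Gm24757, E130208F15Rik, Arhgap33os and Gm26935. A change in these genes was not detectable at this depth. Between 20 and 100 kb from Nfkbid 2 of 9 genes were tested, so the range next to the locus is thinly covered. Of the 38 tested genes, 15 overlap a gene on the other strand and 9 a gene on the same strand, and 23 had a fractional count in some library, so their levels may include reads of a neighbour.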

How the data were processed

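Per the labels' protocols, total RNA of sorted live CD4+CD8+ thymocytes was made into KAPA stranded libraries. Per the submitters' processing notes, Bowtie 1.0.0, SAMtools 0.1.18 and edgeR 3.24.3 were used on GRCm38 (mm10). The sources used here do not give the counting program or its strand setting. Each deposited file holds an expected (estimated) count and a TPM value per gene, per the file headers. Among deposited estimated counts above 0, 58.7% were whole within 1e-06. The deposited TPM sums to 1000000 in each library and served for levels per length and 1 alternative. Positions and symbols are those of GENCODE on GRCm38, which named 46005 of the 46517 identifiers, and the other 512 held 0.171% of the counts. The number of unmapped columns was 0.

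Estimated counts were rounded and fitted with edgeR 4.0.16 in R 4.3.3 (TMM, edgeR's filter on expression by group, robust quasi-likelihood, terms for group and sex, all 16 libraries, 12 residual degrees of freedom, common biological coefficient of variation 0.128). Benjamini-Hochberg adjustment ran over 14933 genes. The procedure was tested on simulated data. SE is the size of a log2 fold change over the square root of its F statistic. Replicates are separate mice by their identifiers. Libraries of a group differed by a chi-square per degree of freedom of 4.28 to 72.1, so none was counted as a repeat. Depth limits the genes under about 1 CPM.

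Alternatives were DESeq2 1.42.0, limma-voom (limma 3.58.1), other scaling and filters, other designs, log2(TPM + 0.1), a fold of 1.2 as the null, a spline offset for GC content and length, and leaving out each library. Values per library were given for Nfkbid, the nearest tested genes and, in each comparison, the 5 called genes with the smallest p; for marker lists, the 2 genes with the smallest p. Members, lists and tests were chosen with earlier results of these data known.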

Additional observations from a re-analysis of the deposited data

Results flagged for a closer look

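In 6 of 117 sets of 1 gene and 1 group, a single library stood apart from the others of its group by Dixon's criterion, which chance meets in about 1 in 20 sets. Capns1 was at 120.7 CPM in transgenic 1, against 104.4 to 109.1 CPM in the other transgenic libraries. Clip3 was at 2.95 CPM in knockout 5, against 1.42 to 1.65 CPM in the other knockout-labelled libraries. Upk1a was at 0.933 CPM in knockout 1, against 0.541 to 0.639 CPM in the others of that group. In controls, Kmt2b was at 344.9 CPM in control 5, against 280.0 to 304.3 CPM in the rest. Zfp260 was at 104.6 CPM in the same library, against 114.9 to 120.9 CPM in the rest. Tmem147 was at 19.1 CPM in control 2, against 15.9 to 16.9 CPM in the other controls.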

How the results depend on the processing

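The count of called flanking genes was 12 for transgenic over control, 10 for knockout-labelled over control and 1 for transgenic over knockout-labelled libraries. Of all genes tested these comparisons called 38.6%, 26.4% and 1.17%. Against a fold of 1.2 the first count was 5 (9.56% of all genes) and the second 1 (2.77%). The second was 4 on deposited TPM (21.1%) and 3 of 40 tested without control 1 and knockout 1 to 3, which had high class II transcripts (9.26%, chosen after seeing the data). The third was 2 by DESeq2 (2.29%) and 2 with the replicate number as a block (1.11%), both times by adding Tyrobp (adjusted p = 0.031 and 0.0248). The block gave 13 and 10 in the other comparisons, and same-numbered libraries had residual correlations of -0.178 to 0.253, so the numbers do not pair the libraries. Leaving out 1 library gave 12 to 14, 7 to 11 and 1. Hcst kept its call in both comparisons of transgenic libraries in all 33 alternatives (log2 fold change 1.67 to 1.94 over control and 1.61 to 1.91 over knockout-labelled), and in males alone its difference was 11.0 CPM over control (exact p = 0.1, the smallest that 3 against 3 allows) and 10.8 CPM over knockout-labelled libraries (exact p = 0.0571). For knockout-labelled over control its difference turned to -0.416 on deposited TPM, lay between -0.328 and 0.517 CPM without 1 library, and its log2 fold change was -0.0073 without the class II libraries, where that of Aplp1 was 0.046. Over 28 pairs of gene and comparison, 853 of 924 values kept direction and call, 66 lost the call, 3 gained it and 2 reversed. The cause of these changes was not tested. Depth limits Tyrobp, Upk1a and the untested genes.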
